A study of Mus musculus with 2 samples.

Results

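Hmox1-high islet macrophages were the 10% of macrophages from mouse pancreatic islets in which Hmox1 took the largest share of the RNA counted in the cell. Hmox1 encodes heme oxygenase 1, the enzyme that opens the heme ring and releases iron, carbon monoxide and biliverdin. The cells came from C57BL/6J male mice on chow diet, with islets of 6 to 8 mice pooled for each library, and were sorted as live immune cells (DAPI-, Epcam-, CD45+). There were 2 such libraries, 1 labelled 1 week and 1 labelled 12 weeks, and what is being counted in weeks is not given. Their titles number them as replicates of the chow diet, both have the same strain and diet, and no treatment or allele is named. Each cell was measured as counts of unique molecular identifiers (UMIs), where 1 UMI stands for 1 captured transcript end.

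The members were chosen by a threshold on Hmox1 itself. Barcodes were kept from 500 genes and 1000 UMIs upward where mitochondrial transcripts made up no more than 10%, and a barcode was taken as a macrophage where the complement genes C1qa, C1qb and C1qc together had at least 5 UMIs. A macrophage was a member where its Hmox1 share was at or above the 90th percentile of the macrophages in its own library. This gave 125 members of 1243 macrophages at 1 week and 162 of 1620 at 12 weeks, or 287 of 2863 macrophages and of 3092 kept barcodes in all. The remaining 1118 macrophages at 1 week and 1458 at 12 weeks were the cells they were compared with.

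Heme oxygenase 1 is a classic target of NRF2 (Nfe2l2), a transcription factor that its partner Keap1 holds back until oxidants or electrophiles release it. NRF2 pairs with small MAF proteins on antioxidant response elements and raises genes that make glutathione, reduce thioredoxin and peroxiredoxins, supply NADPH and store iron. Bach1 binds the same elements as a repressor and leaves them when heme binds it. Macrophages that take up dying red blood cells are known for high Hmox1 and for the iron exporter ferroportin (Slc40a1), and heat shock and metals are known to induce the gene as well.

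The antioxidant response element has the core TGACNNNGC, or GCNNNGTCA read on the other strand, and the promoters of genes high in the members that hold it show what such a site looks like. RefSeq promoter windows of build GRCm38.p6, from 250 bases before to 50 bases after each start site, held the core on either strand for 9 of the 21 NRF2 target genes with a window (42.9%), for 3781 of all 27025 genes with a window (14%), and for 1334 of 7730 genes tested here (17.3%). Among genes called higher in Hmox1-high macrophages 108 of 427 with a window held it (25.3%), and among genes called lower 36 of 218 did (16.5%). The NRF2 list was drawn up from knowledge of NRF2 targets, so its share is no independent evidence, and a match is a description of the letters only. Stretches of 80 bases follow with the core in capitals, all on the + strand and all upstream of a RefSeq start site. They are from the modifier subunit of glutamate-cysteine ligase (Gclm, chr3:122245383-122245462), peroxiredoxin 1 (Prdx1, chr4:116685426-116685505) and thioredoxin reductase 1 (Txnrd1, chr10:82859074-82859153). The core began 134 bases before that start site in Gclm, 133 in Prdx1 and 92 in Txnrd1. For Txnrd1 it is an internal start site, since the stretch lies within the annotated gene (82833951 to 82897712).
Gclm: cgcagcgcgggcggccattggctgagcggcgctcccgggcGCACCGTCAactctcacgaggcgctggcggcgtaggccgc
Prdx1: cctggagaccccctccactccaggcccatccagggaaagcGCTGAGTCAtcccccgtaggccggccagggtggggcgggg
Txnrd1: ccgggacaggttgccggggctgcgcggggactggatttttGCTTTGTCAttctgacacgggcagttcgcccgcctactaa

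Hmox1 (ENSMUSG00000005413, GRCm38 chromosome 8, 75093621 to 75100589, + strand) formed a continuum with no gap at the threshold. In Hmox1-high macrophages its share had a median of 6347 and a highest value of 13608 CPM (UMIs of the gene per 1000000 UMIs of the cell) at 1 week, and a median of 10442 and a highest value of 20931 at 12 weeks. In the remaining macrophages the median was 686 at 1 week and 2644 at 12 weeks. The member just inside the threshold had 4815 CPM at 1 week and 8763 CPM at 12 weeks, against 4813 and 8761 CPM in the cell just outside it. These values chose the members and are a description. A member carried a median of 45 Hmox1 UMIs at 1 week (10 to 114) and of 65 at 12 weeks (14 to 122).

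**Figure D1:**
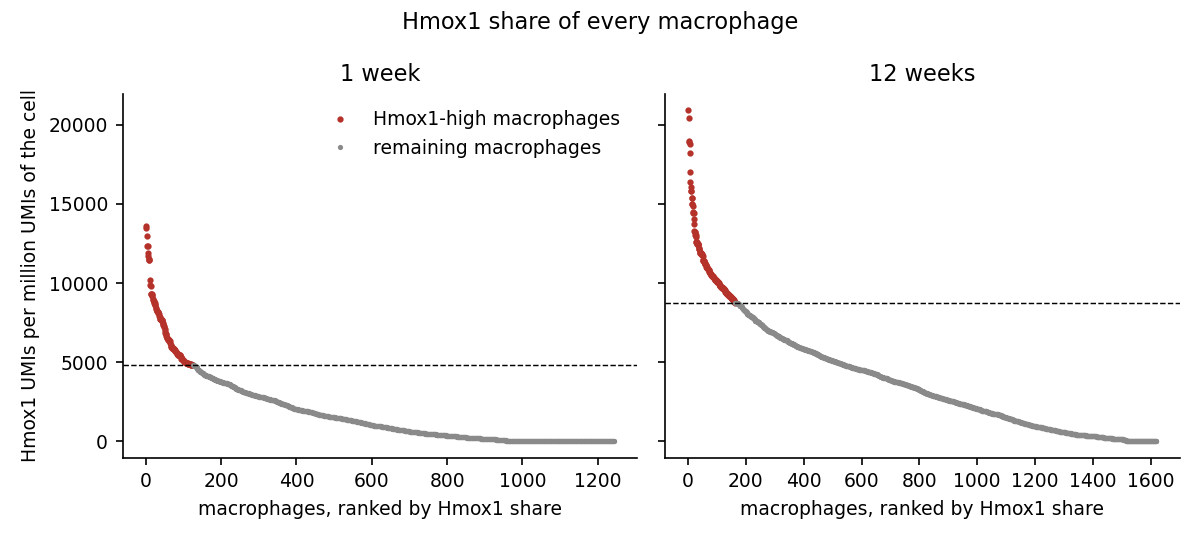
Hmox1 share of each macrophage in CPM (y axis), with macrophages ranked from the highest share to the lowest (x axis), for the 1-week library (left) and the 12-week library (right). Red points are Hmox1-high macrophages and grey points the remaining macrophages, the dashed line is the 90th percentile of the library, and the curve passes it without a gap in both.

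The whole distribution sat higher at 12 weeks, so the same rule picked cells at different levels. Of the 12-week macrophages 542 (33.5%) passed the 1-week threshold, while 22 of the 1-week macrophages (1.77%) passed the 12-week threshold. Macrophages without any Hmox1 UMI numbered 285 (22.9%) at 1 week and 105 (6.48%) at 12 weeks. With 1 library per label, the label and the library cannot be told apart, and no test was made between them. Among the other cells of the sort, Hmox1 had 75.7 CPM in B cells at 1 week, seen in 6 of 26 cells (23.1%, median 6040.5 UMIs a cell), and 37.3 CPM at 12 weeks, seen in 3 of 27 cells (11.1%, median 3127 UMIs). In T cells it was seen in 0 of 9 cells at 1 week (median 2975 UMIs) and had 150 CPM at 12 weeks, seen in 7 of 34 cells (20.6%, median 3685 UMIs). Summed Hmox1 was 6823 and 11099 CPM in Hmox1-high macrophages at 1 and 12 weeks, against 1391 and 3105 CPM in the remaining ones.

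The members kept the markers of macrophages. Csf1r, the receptor for the macrophage growth factor CSF1, had 465 and 439 CPM of the summed UMIs in Hmox1-high macrophages at 1 and 12 weeks, against 533 and 481 CPM in the remaining macrophages. Adgre1, which encodes F4/80, had 245 and 204 CPM against 216 and 208 CPM. Neither difference passed the test described next. Lyz2, lysozyme, had 1968 and 1810 CPM in members against 2631 and 2404 CPM and was lower (-0.30 ± 0.09 on the log2 scale, with the standard error after ±; edgeR adjusted p = 0.0224). The fractalkine receptor Cx3cr1 was lower too, with 55.7 and 63.2 CPM in Hmox1-high against 167 and 126 CPM in remaining macrophages (-1.17 ± 0.16, edgeR adjusted p = 1.1e-11). Over the 18 macrophage identity genes tested 2 were higher, Cd68 (0.31) and the transcription factor Cebpb (0.85), and 4 were lower, the others being the Fc receptors Fcgr1 (-0.76) and Fcgr3 (-0.47). The C1q genes, which the rule used, had 7779 and 7225 CPM in members and 10169 and 9120 CPM in the remaining cells. Median depth was 6713 and 6125 UMIs a cell in Hmox1-high macrophages, against 7539.5 and 7008 in the remaining ones.

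To test genes that the rule did not use, UMIs were summed over members and over remaining macrophages in each library, which gave 4 profiles of 880273 and 934160 UMIs (members) and 10526634 and 10507421 UMIs (remaining), and fitted with edgeR's quasi-likelihood test with the library as a block. Of 9809 genes tested, 531 were higher in Hmox1-high macrophages (5.41%) and 271 lower (2.76%) at an adjusted p under 0.05, and 792 of these 802 moved the same way in both libraries. The median log2 fold change over all genes was -0.05. The p-values rest on the spread of the difference between 2 libraries, pooled over genes because 4 profiles leave 1 residual degree of freedom. The prior degrees of freedom were infinite, so a gene's own disagreement between the libraries did not enter its spread. A small p-value is thus no measure of agreement between the libraries for that gene, and the libraries carry different labels. DESeq2 called 252 higher and 35 lower.

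Most genes that NRF2 is known to activate were higher in the members. Of 28 genes listed, 27 are named in the files and 23 passed the filter on low counts. Of those 23, 20 were higher and 0 lower, with a median log2 fold change of 0.85, which was 0.92 at 1 week and 0.73 at 12 weeks. The 3 that did not pass the test were Nqo1 (-0.24), Tkt (-0.31) and Cbr1 (0.74). The list shares ferritin, ferroportin and other genes with the heme and iron list below. Among others, it also shares Gclc and Gclm with the glutathione list and Srxn1, Prdx1 and Txnrd1 with the thioredoxin list. It shares Pgd and G6pdx with the pentose phosphate list. The lists are therefore not independent, and the counts that follow repeat these genes.

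Gclc, the catalytic subunit of the rate-limiting enzyme, had 165 and 252 CPM in Hmox1-high macrophages at 1 and 12 weeks, against 67.8 and 110 CPM in remaining macrophages (log2 fold change 1.35 ± 0.13 SE, edgeR adjusted p = 1.22e-22). Gclm, its modifier subunit, had 353 and 404 CPM against 125 and 252 CPM (1.20 ± 0.11, edgeR adjusted p = 1.25e-22). The difference was close in both libraries for Gclc (1.37 and 1.34) and larger at 1 week for Gclm (1.59 and 0.83). Slc7a11, the cystine importer that feeds this pathway, had 474 and 377 CPM in members against 224 and 290 CPM in the rest (0.85 ± 0.11, edgeR adjusted p = 5.25e-12), and its partner chain Slc3a2 was higher by a like amount (0.87 ± 0.10, edgeR adjusted p = 1.19e-15). Over the 17 glutathione genes tested 6 were higher and 1, the peroxidase Gpx1, was lower (-0.42 ± 0.11, edgeR adjusted p = 0.00442). DESeq2 called 6 of the 17 higher and 0 lower. Without the 10% of macrophages highest in chaperones 5 of 16 were higher and 0 lower.

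In the thioredoxin system, Prdx1, a peroxiredoxin that removes hydrogen peroxide and has near-identical pseudogenes, had 5345 and 5756 CPM in Hmox1-high macrophages at 1 and 12 weeks, against 2253 and 3097 CPM in remaining macrophages (1.19 ± 0.09, edgeR adjusted p = 6.12e-37). Srxn1, sulfiredoxin, which repairs over-oxidised peroxiredoxins, had 425 and 783 CPM against 199 and 438 CPM (1.08 ± 0.11, edgeR adjusted p = 9.24e-21). Txnrd1 had 1244 and 1398 CPM against 616 and 938 CPM (0.91 ± 0.10, edgeR adjusted p = 1.31e-17). Within each library the members were higher, but the libraries differed in level, and for Srxn1 the 1-week members lay below the 12-week remaining macrophages. Txnip, the protein that binds and inhibits thioredoxin, was lower, with 12.5 and 7.49 CPM in members against 34.9 and 38.1 CPM (-1.76 ± 0.33, edgeR adjusted p = 5.49e-06). In all, 4 of the 14 genes tested in this system were higher and 2 lower, and the mitochondrial Prdx3 (-0.59) and Txnrd2 (-0.57) did not pass the test.

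NADPH, which both systems spend, is made by the oxidative pentose phosphate pathway. The list tested was wider, covering pentose phosphate and NADPH genes, and 3 of 10 were higher with 0 lower. Its median was 0.05 (-0.06 at 1 week and 0.11 at 12 weeks). Pgd, which makes NADPH from 6-phosphogluconate, had 329 and 422 CPM in Hmox1-high macrophages against 184 and 234 CPM in remaining macrophages (0.96 ± 0.11, edgeR adjusted p = 6.68e-15). Taldo1 (0.54 ± 0.10, edgeR adjusted p = 1.42e-05) and G6pdx, the entry enzyme (0.71 ± 0.22, edgeR adjusted p = 0.0234), were higher too. Among sources and scavengers of superoxide, Cybb, the catalytic subunit of the phagocyte NADPH oxidase, had 668 and 431 CPM in members against 640 and 557 CPM and did not pass the test, and its cytosolic partners Ncf1 (-0.64) and Rac2 (-0.49) were lower. Sod2, the mitochondrial superoxide dismutase, had 473 and 374 CPM in members against 375 and 360 CPM and did not pass the test (0.31 ± 0.11, edgeR adjusted p = 0.0517).

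The transcript of NRF2 itself did not pass the test. Nfe2l2 had 433 and 517 CPM in Hmox1-high macrophages at 1 and 12 weeks, against 439 and 578 CPM in remaining macrophages (log2 fold change 0.03 ± 0.11 SE, edgeR adjusted p = 0.937). Its small MAF partner Mafg had 377 and 401 CPM against 173 and 231 CPM (1.08 ± 0.11, edgeR adjusted p = 1.12e-18). The repressor Bach1 (0.63 ± 0.11, edgeR adjusted p = 2.32e-06), the inhibitor Keap1 (0.80 ± 0.22, edgeR adjusted p = 0.00615) and Maff (0.58 ± 0.13, edgeR adjusted p = 3.66e-04) were higher as well, which made 4 higher and 0 lower of 10 regulators. Sqstm1, the autophagy receptor p62 that binds Keap1, had 1736 and 2408 CPM in members against 980 and 1552 CPM (0.85 ± 0.09, edgeR adjusted p = 1.61e-16).

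**Figure D2:**
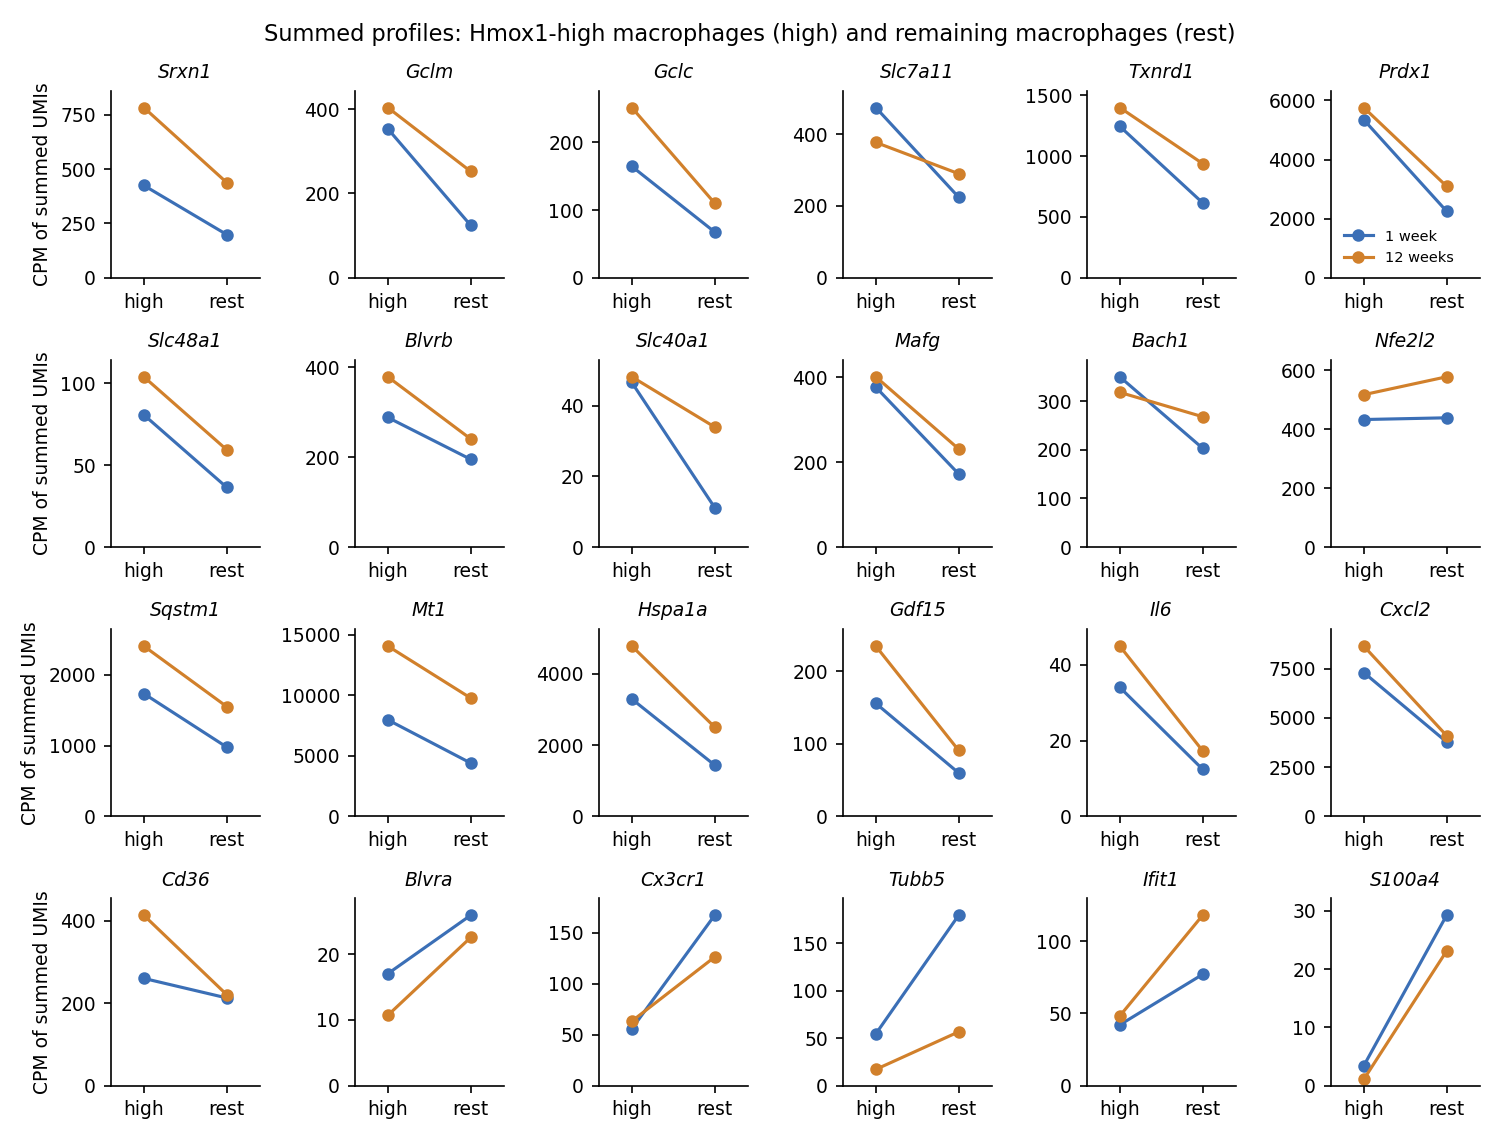
CPM of the summed profiles (y axis, from 0) for 24 genes in Hmox1-high macrophages (high) and remaining macrophages (rest), with 1 line for the 1-week library (blue) and 1 for the 12-week library (orange). Lines fall from left to right for the NRF2 targets and chaperones, lie nearly flat for Nfe2l2 and climb for Cx3cr1, Tubb5, Ifit1 and S100a4.

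Some heme and iron genes were higher. Of 22 tested 8 were higher and 0 lower, with a median of 0.34. Blvrb, biliverdin reductase B, had 289 and 379 CPM in Hmox1-high macrophages against 195 and 241 CPM in remaining macrophages (0.73 ± 0.11, edgeR adjusted p = 2.39e-08). Blvra, the reductase that acts on the biliverdin heme oxygenase makes, had 17.0 and 10.7 CPM in members against 25.9 and 22.6 CPM and did not pass the test (-0.70 ± 0.32, edgeR adjusted p = 0.185). Slc48a1, which carries heme out of the phagolysosome, had 80.7 and 104 CPM against 36.5 and 59.4 CPM (1.08 ± 0.17, edgeR adjusted p = 4.34e-08). The ferritin chains that store iron, whose reads can be split with pseudogene copies, were higher, Ftl1 by 0.65 ± 0.08 (edgeR adjusted p = 2.31e-13) and Fth1 by 0.41 ± 0.08 (edgeR adjusted p = 5.67e-06), and the first enzyme of heme synthesis, Alas1, by 0.59 ± 0.17 (edgeR adjusted p = 0.0106).

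Ferroportin, the exporter of iron, was higher in the members with unequal ratios in the 2 libraries. Slc40a1 had 46.6 and 48.2 CPM in Hmox1-high macrophages at 1 and 12 weeks, against 11.2 and 34.0 CPM in remaining macrophages (1.32 ± 0.24, edgeR adjusted p = 4.7e-06). The members were alike in both libraries and the remaining macrophages were not: the ratio of members to remaining was 4.16 at 1 week (95% exact interval from counting error, 2.84 to 5.97) and 1.42 at 12 weeks (1.02 to 1.94). This difference between labels was not tested. Without the 10% of macrophages highest in chaperones, Slc40a1 was at 1.26 and did not pass the test (edgeR adjusted p = 0.109). Slc40a1 was seen in 18.4% of members at 1 week (95% exact interval 12.0 to 26.3) and in 15.4% at 12 weeks (10.2 to 21.9), against 6.71% (5.31 to 8.34) and 12.96% (11.3 to 14.8) of remaining macrophages. With each cell thinned to 2000 UMIs the shares were 8.87% and 8.92% in members and 1.41% and 5.44% in remaining macrophages. Slc40a1 was not seen in 26 B cells at 1 week (median 6040.5 UMIs, 95% exact interval 0 to 13.2%). This interval holds the 6.71% of the 1-week remaining macrophages, so the zero shows no difference from them. Spic, the factor that marks red pulp macrophages of the spleen, had 56.8 and 108 CPM in members against 41.7 and 90.4 CPM and did not pass the test (0.46 ± 0.17, edgeR adjusted p = 0.0696).

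Metallothioneins, which bind zinc and copper, were higher: Mt1 had 7973 and 14065 CPM in Hmox1-high macrophages against 4406 and 9772 CPM in remaining macrophages (0.81 ± 0.08, edgeR adjusted p = 3.97e-19), and Mt2 was higher by 0.69 ± 0.10 (edgeR adjusted p = 5.22e-10). The zinc exporter Slc30a1 was higher too (0.72 ± 0.16, edgeR adjusted p = 3.08e-04), and the other 7 of the 10 metal genes did not pass the test.

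Several NRF2 targets climbed along the whole range of Hmox1. With macrophages split into deciles by Hmox1 share, Prdx1 at 12 weeks had 914 CPM in the lowest decile, 3335 CPM in decile 5, 5211 CPM in decile 9 and 5756 CPM in the members, which are decile 10. At 1 week, where 285 cells without Hmox1 UMIs made the lowest 3 deciles 1 group of 373 cells, Prdx1 had 809 CPM in that group, 4222 CPM in decile 9 and 5345 CPM in the members. Srxn1 had 425 CPM in the 1-week members against 48.0 in the lowest group, and 783 CPM in the 12-week members against 63.9 in the lowest decile. Gclm had its highest 12-week level, 438 CPM, in decile 9, while the members had 404 CPM. Slc40a1 at 12 weeks was highest in decile 4, with 52.1 CPM. The deciles share libraries and differ in makeup, the lowest group at 1 week holding the most islet hormone transcripts, and these series are descriptions without a test.

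**Figure D3:**
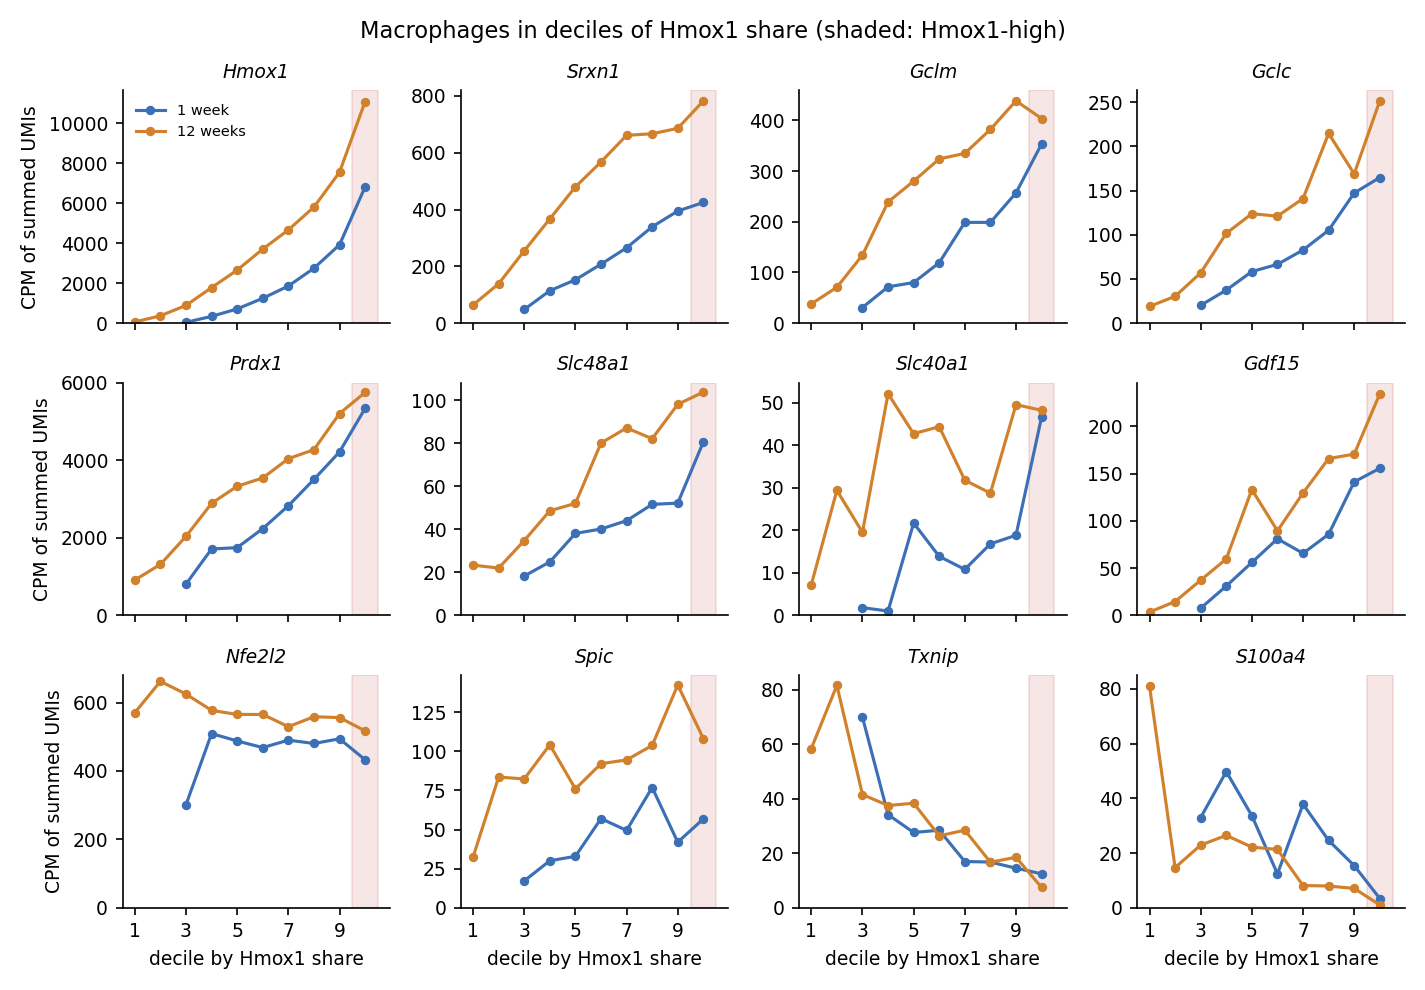
CPM of summed UMIs (y axis, from 0) for 12 genes over deciles of macrophages by Hmox1 share (x axis, 10 being the members, shaded), in the 1-week library (blue, lowest 3 deciles joined and drawn at 3) and the 12-week library (orange). Hmox1 chose the deciles. Srxn1, Gclc, Prdx1, Slc48a1 and Gdf15 are highest in the members in both libraries, Nfe2l2 is not, and Txnip and S100a4 are lowest there.

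Most chaperones of the heat shock response were higher in the members. Of 18 tested 15 were higher and 0 lower, with a median of 1.00 (1.19 at 1 week and 0.75 at 12 weeks). Hspa1a and Hspa1b, near-identical genes for inducible HSP70 whose reads cannot be fully told apart, were higher by 1.18 ± 0.09 (edgeR adjusted p = 6.96e-35) and 1.29 ± 0.09 (edgeR adjusted p = 1.51e-41). Hsp90aa1 had 3833 and 6337 CPM in Hmox1-high macrophages against 1564 and 3956 CPM in remaining macrophages (1.10 ± 0.09, edgeR adjusted p = 1.65e-31). Dnajb4, a co-chaperone, had 176 and 249 CPM against 58.4 and 115 CPM (1.46 ± 0.13, edgeR adjusted p = 2.06e-26), and Dnajb1 was higher by 0.93 ± 0.11 (edgeR adjusted p = 3.04e-14). Of 20 immediate early genes 12 were higher and 0 lower, with a median of 0.49 (3 higher and a median of 0.31 without the 10% of macrophages highest in chaperones), among them Fosl1 (1.30 ± 0.14, edgeR adjusted p = 5.01e-18) and Nr4a1 (1.11 ± 0.13, edgeR adjusted p = 5.09e-15). The ubiquitin gene Ubb was higher as well, by 0.82 ± 0.09 (edgeR adjusted p = 3.19e-18).

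Stress genes of protein synthesis and the endoplasmic reticulum were mixed, with 4 of 20 higher and 1 lower. Atf3 had 535 and 712 CPM in Hmox1-high macrophages against 331 and 458 CPM in remaining macrophages (0.78 ± 0.11, edgeR adjusted p = 2.47e-11). Atf4, the main factor of the integrated stress response, was higher by 0.63 ± 0.12 (edgeR adjusted p = 3.86e-06), and the growth factor Vegfa by 0.65 ± 0.16 (edgeR adjusted p = 8.46e-04). Herpud1, a gene of endoplasmic reticulum protein disposal, had 101 and 83.5 CPM in members against 233 and 143 CPM (-0.89 ± 0.14, edgeR adjusted p = 2.82e-08).

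Members differed among themselves in these programs. Macrophages in the top 10% of their library by summed NRF2 targets made up 35.2% of members at 1 week and 38.9% at 12 weeks, and those in the top 10% by chaperones 32.8% and 23.5%, where 10% of all macrophages pass each threshold. The ferritin chains Fth1 and Ftl1 made up 83.4% and 82.5% of the summed NRF2 list in members and 88.5% and 85.8% in remaining macrophages, so ferritin weighs most in that sum. Summed without them, an alternative chosen after seeing the data, the top 10% held 40.8% of members at 1 week and 32.1% at 12 weeks. Both at once held for 11 members of 125 at 1 week and 8 of 162 at 12 weeks, and 51 (40.8%) and 69 (42.6%) passed neither, or 42 (33.6%) and 78 (48.1%) with ferritin left out. Members high in both had a median Hmox1 share of 7741 CPM at 1 week and 11345 CPM at 12 weeks, against 5819 and 10232 CPM in members high in neither. Without all macrophages in the top 10% by chaperones, 84 and 124 members were left, and 17 of 23 NRF2 targets were higher with a median of 0.87. Among chaperones 13 of 18 were higher, with a median of 0.68, but these genes chose the cells left out, so this is a description only. Of all 9540 genes tested 120 were then higher and 39 lower, with fewer cells in both groups. The count of immediate early genes higher was 3 of 20, of regulators of NRF2 1 of 10, of heme and iron genes 4 of 22, of lipid genes 1 of 18, of lysosome genes 2 of 23, of protein synthesis stress genes 1 of 19 and of hypoxia and glycolysis genes 1 of 20. The count lower was 1 of 20 interferon-stimulated genes, 3 of 16 cell cycle genes, 1 of 24 inflammatory genes and 0 of 4 monocyte genes. The medians of the interferon-stimulated (-0.54) and cell cycle lists (-1.29) had the sign they have with all macrophages. Of 141 named genes 47 lost their call in this setting. Among them were Slc40a1, Bach1 (0.62, edgeR adjusted p = 0.0594), Keap1 (0.90, edgeR adjusted p = 0.0594), Atf4 (0.55, edgeR adjusted p = 0.0759) and Vegfa (0.73, edgeR adjusted p = 0.0566).

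Hmox1-high and heat shock-high macrophages were also compared with each taken without the other. The 84 and 124 Hmox1-high cells outside the top 10% by chaperones were set against the 84 and 124 cells in that top 10% that were not Hmox1-high, with Hmox1 and chaperones left out of the test because they chose the cells. This comparison was chosen after seeing the data. The 41 and 38 cells high in both were left out of both sides. The choice itself therefore sets apart genes that follow Hmox1 or chaperones from cell to cell. The p-values cannot separate that from a further difference between the cells, and the counts describe the cells so chosen. Of 4947 genes tested 190 were higher (3.84%) and 236 lower (4.77%) in the Hmox1-high cells. Of 21 NRF2 targets tested 15 were higher and 0 lower, with a median of 0.79. Slc7a11 had 570 and 437 CPM in the Hmox1-high cells at 1 and 12 weeks, against 122 and 84.0 CPM in the heat shock-high cells (2.31 ± 0.19, edgeR adjusted p = 4.05e-30). Prdx1 had 5921 and 6204 CPM against 1944 and 1706 CPM (1.75 ± 0.13, edgeR adjusted p = 1.33e-36). Slc40a1 (2.16 ± 0.41, edgeR adjusted p = 1.07e-05), Spic (1.43 ± 0.30, edgeR adjusted p = 8.98e-05) and Keap1 (1.40 ± 0.33, edgeR adjusted p = 8.61e-04) were higher, while Mafg (-0.05), Gclc (0.47) and Blvrb (0.24) did not pass the test.

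Immediate early genes ran the other way between these cells. Of 18 tested 0 were higher and 12 lower in the Hmox1-high cells, with a median of -0.77. Fosb had 63.6 and 107 CPM in Hmox1-high against 310 and 487 CPM in heat shock-high cells (-2.21 ± 0.20, edgeR adjusted p = 7.72e-25). Klf4 (-2.80 ± 0.33, edgeR adjusted p = 1.26e-14), Jun (-1.31 ± 0.17, edgeR adjusted p = 9.85e-13), Atf3 (-1.20 ± 0.15, edgeR adjusted p = 6.14e-13) and the stress factor Ddit3 (-1.38 ± 0.23, edgeR adjusted p = 4.68e-07) were lower. Cxcl3, a neutrophil-attracting chemokine, had 243 and 97.2 CPM in Hmox1-high cells, against 32.6 CPM at 1 week and no UMI at 12 weeks in heat shock-high cells.

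**Figure D4:**
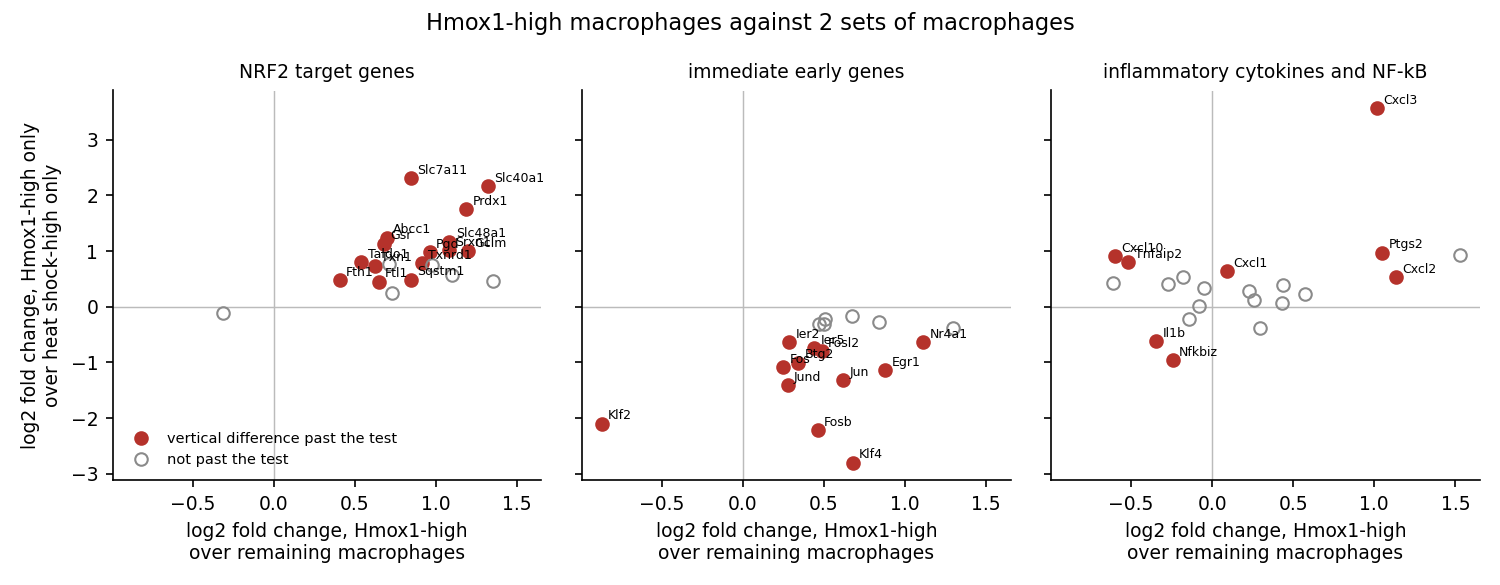
Log2 fold change of Hmox1-high over remaining macrophages (x axis) and of Hmox1-high only over heat shock-high only macrophages (y axis) for single genes of 3 lists. Filled points passed the test on the y axis. The NRF2 targets that passed lie above 0 on both axes, and the immediate early genes that passed lie below 0 on the y axis. The axes share the Hmox1-high cells, and Hmox1 and chaperones chose the cells of the y axis.

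Some secreted factors were higher. Gdf15, a stress-induced cytokine, had 156 and 234 CPM in Hmox1-high macrophages against 59.8 and 90.9 CPM in remaining macrophages (1.49 ± 0.13, edgeR adjusted p = 1.78e-26), and was seen in 30.4% and 32.1% of members against 14.9% and 17.7% of remaining cells. Il6 had 34.1 and 45.0 CPM against 12.4 and 17.3 CPM (1.53 ± 0.26, edgeR adjusted p = 3.18e-07), from 7 members with an Il6 UMI at 1 week and 26 at 12 weeks. That was 5.6% and 16.0% of members, against 5.55% and 7.34% of remaining macrophages, so at 1 week the 30 member UMIs came from a like share of cells. Cxcl2 had 7311 and 8656 CPM against 3782 and 4104 CPM (1.13 ± 0.09, edgeR adjusted p = 2e-35), and Ptgs2, cyclooxygenase 2, was higher by 1.05 ± 0.15 (edgeR adjusted p = 4.68e-10), with 1.61 in the 1-week and 0.45 in the 12-week library alone. Its 12-week ratio of members to remaining macrophages was 1.23 (95% exact counting interval 0.978 to 1.54). Il1b was lower (-0.35 ± 0.10, edgeR adjusted p = 0.00768), and Il12b, a subunit of interleukin 12, had 27.3 and 3.21 CPM against 56.7 and 36.6 CPM (-1.60 ± 0.29, edgeR adjusted p = 1.83e-06). In all 7 of 24 inflammatory genes were higher and 5 lower, with a median of 0.02. Il10, an anti-inflammatory cytokine known to induce Hmox1, had 124 and 47.1 CPM in members against 92.6 and 57.3 CPM and did not pass the test.

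Of 20 interferon-stimulated genes tested 9 were lower and 1 higher, with a median of -0.54 that was -0.10 at 1 week and -0.74 at 12 weeks. Ifit1 had 42.0 and 48.2 CPM in Hmox1-high macrophages against 76.9 and 118 CPM in remaining macrophages (-0.98 ± 0.18, edgeR adjusted p = 3.57e-06). Ifit3 had 28.4 and 9.63 CPM against 29.6 and 80.8 CPM, so its call rested on the 12-week library. Oasl1 was the exception (0.70 ± 0.12, edgeR adjusted p = 2.24e-07). DESeq2 called 1 of the 20 lower and 1 higher.

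Of 16 cell cycle genes 8 were lower and 2 higher, with a median of -1.18, and DESeq2 called 2 lower and 1 higher. Mki67, a marker of cycling cells, had 11.4 and 4.28 CPM in Hmox1-high macrophages against 27.0 and 24.0 CPM in remaining macrophages (-1.61 ± 0.37, edgeR adjusted p = 4.62e-04), and Tubb5 had 54.5 and 17.1 CPM against 180 and 56.7 CPM (-1.61 ± 0.19, edgeR adjusted p = 2.98e-15). The 2 higher genes were Cdkn1a, the inhibitor p21 (0.86 ± 0.10, edgeR adjusted p = 1.31e-14), and the replication clamp Pcna, which repair also uses (0.53 ± 0.13, edgeR adjusted p = 0.00153). Of 4 monocyte genes tested 2 were lower, among them Ccr2 with 20.4 and 4.28 CPM against 34.2 and 24.9 CPM (-1.20 ± 0.32, edgeR adjusted p = 0.00499), and DESeq2 called 0 of the 4. The calcium-binding protein gene S100a4 had 3.41 and 1.07 CPM against 29.3 and 23.1 CPM (-3.44 ± 0.50, edgeR adjusted p = 1.05e-09). Without cells that hold markers of other cell types 8 interferon-stimulated and 7 cell cycle genes were lower, where 253 of all 9524 genes tested were lower.

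Of 18 lipid genes 6 were higher and 0 lower, among them the fatty acid chaperone Fabp5 (1.06 ± 0.20, edgeR adjusted p = 5.93e-06), the nuclear receptor Pparg (1.04 ± 0.21, edgeR adjusted p = 5.37e-05) and the scavenger receptor Cd36, with 260 and 413 CPM in Hmox1-high against 213 and 221 CPM in remaining macrophages (0.73 ± 0.12, edgeR adjusted p = 2.82e-08). Of 23 lysosome genes 7 were higher and 1 lower, led by the acid lipase Lipa (0.83 ± 0.11, edgeR adjusted p = 1.19e-11). Antigen presentation showed 1 higher and 1 lower of 12, where 5.41% of all genes tested were higher and 2.76% lower. H2-Aa, an MHC class II chain, had 10601 and 12416 CPM in members against 10388 and 12358 CPM and did not pass the test. The class II activator Ciita was lower (-0.89 ± 0.22, edgeR adjusted p = 0.00138). Of 12 efferocytosis receptors 0 were higher and 1, Itgb5, was lower (-0.56 ± 0.14, edgeR adjusted p = 0.00149). DESeq2 called 0 genes lower in the antigen presentation and efferocytosis lists, and counts this small are not read as a change of either list. The glucose transporter Slc2a1 (1.13 ± 0.19, edgeR adjusted p = 4.66e-07) and the glycolytic enzyme Pkm (0.68 ± 0.11, edgeR adjusted p = 7.04e-08) were higher among 4 higher and 1 lower of 21 hypoxia and glycolysis genes.

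**Figure D5:**
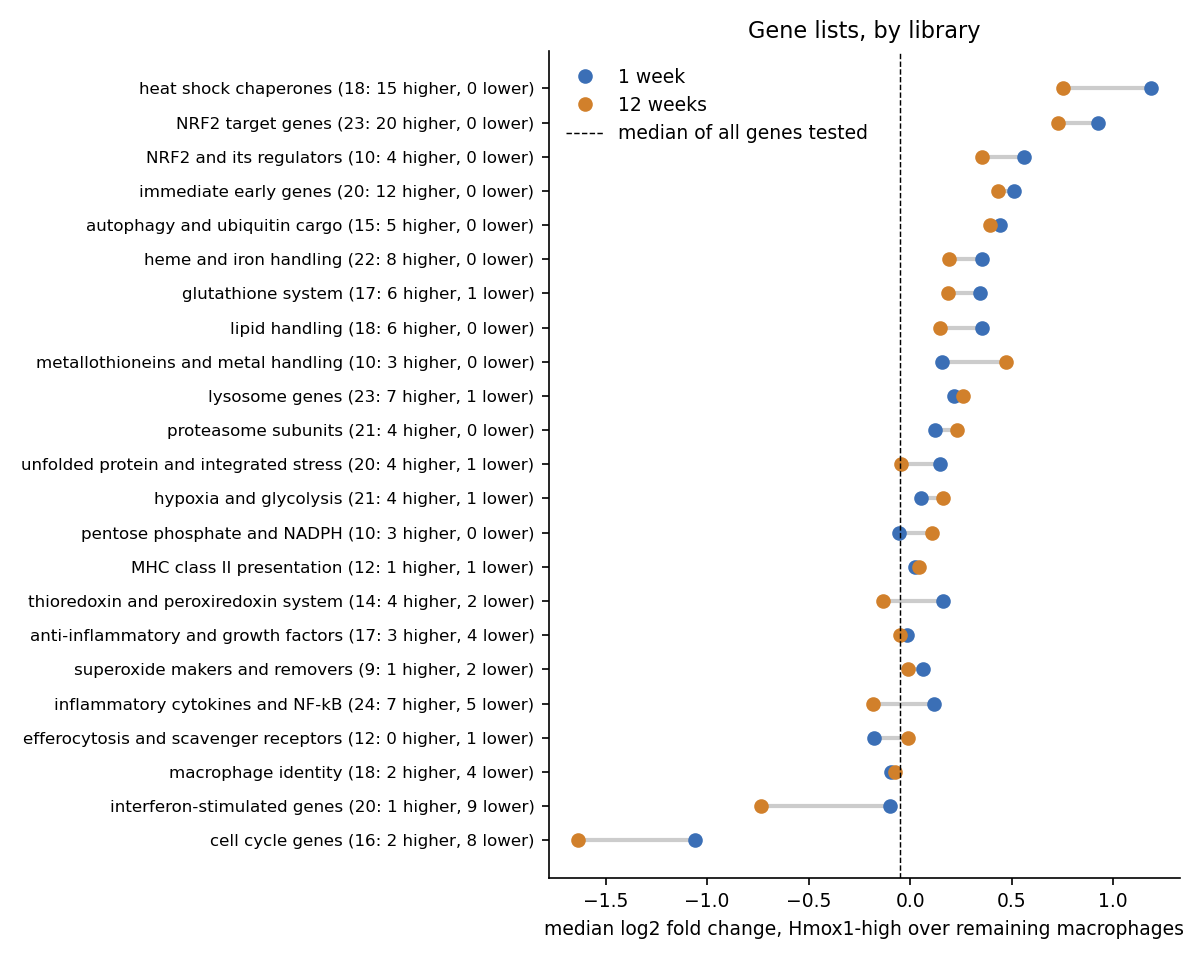
Median log2 fold change of Hmox1-high over remaining macrophages (x axis) for 23 gene lists, in the 1-week library (blue) and the 12-week library (orange), with the genes tested and called beside each name and the median of all genes tested as a dashed line. Chaperones and NRF2 targets are highest in both libraries and cell cycle genes lowest.

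Apart from the lists, genes with large increases included Cbr3, a carbonyl reductase, with 199 and 223 CPM in Hmox1-high macrophages against 60.0 and 112 CPM in remaining macrophages (1.46 ± 0.13, edgeR adjusted p = 1.78e-26), and Igf2bp2, an RNA-binding protein, with 24.99 and 22.5 CPM against 8.17 and 8.66 CPM (1.61 ± 0.34, edgeR adjusted p = 1.08e-04). Paip2b had a log2 fold change of 1.76 ± 0.33 (edgeR adjusted p = 4.5e-06), but 41 of its 51 member UMIs came from the 1-week library. Homer3, Lrrc32, Cds2, Rassf8 and Kansl1l were higher by 1.27 to 1.31. At the other end, beside hormone and antibody genes, Txndc16 (-2.34), the histone gene Hist1h2ap (-2.23), which has near-identical copies, and Zfp512 (-2.12) were lower. In the 1-week and 12-week libraries alone Txndc16 was at -2.54 and -1.44, Hist1h2ap at -0.45 and -2.74, and Zfp512 at -2.69 and -0.77.

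Islet hormone transcripts were lower in the members, and few droplets held most of them. All 10 islet hormone genes were lower, with Gcg, glucagon, at 19.3 and 8.56 CPM in Hmox1-high against 1449 and 20.6 CPM in remaining macrophages and Ins2 at 1078 and 956 CPM in Hmox1-high macrophages against 13676 and 4453 CPM in remaining macrophages. Cells with at least 5% hormone UMIs numbered 0 of 125 and 0 of 162 members, which allows shares of up to 2.4% and 1.85%, against 22 (1.97%) and 9 (0.617%) of the remaining macrophages. The hormone share of the median cell was 842 and 992 CPM in members and 921 and 910 CPM in remaining cells. Without the hormone-rich and hemoglobin-rich cells 0 of 9 hormone genes were lower and 1 was higher, while 20 of 23 NRF2 targets and 15 of 18 chaperones were higher. Of all 9694 genes tested 516 were then higher and 273 lower. Igkc, an antibody chain, had 2.27 and 2.14 CPM in members against 501 and 15.2 CPM, and 5 cells held 92.0% of the B cell marker UMIs of the 1-week remaining macrophages. B cell markers summed to 6.82 and 4.28 CPM in members, against 543 and 20.6 CPM in remaining macrophages. Monocyte markers summed to 55.7 and 20.3 CPM in members against 84.7 and 85.7 CPM, and T cell markers to 15.9 and 0 CPM against 15.9 and 28.3 CPM.

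Hemoglobin transcripts came mostly from single droplets. The 12-week members had 1579 erythroid UMIs, of which 1480 came from 1 cell, where they made 18.8% of its 7865 UMIs beside 85 Hmox1 UMIs and 31 C1q UMIs. Another 57 and 40 came from 2 further cells. The 1-week members had 0, which allows a share of up to 2.4% of cells with such a UMI, and the remaining macrophages had 432 UMIs at 1 week, 425 of them in 1 cell, and 96 at 12 weeks. Counted by cells, 5 of 162 members and 21 of 1458 remaining macrophages had any at 12 weeks. Whether these cells had taken up red cells or shared a droplet with one cannot be told from counts.

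Each cell's UMIs were also split at random into 2 equal parts, with members chosen on one and measured on the other. Hmox1 was then at 6328 and 10140 CPM in members against 1412 and 3149 CPM in remaining macrophages, a ratio of 4.48 and 3.22. In that split 15 of 23 NRF2 targets and 15 of 18 chaperones were higher, where 239 of all 8536 genes tested were higher and 77 lower.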

How the data were processed

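Islet immune cells were profiled with the Chromium 3' v3 kit, per the labels' protocols. The authors deposited raw UMI counts per gene and barcode, mapped to mm10 with Cell Ranger per the submitters' processing notes, version 3.1.0 per the file headers. The barcode filter and read-level settings are not given in the sources used here. The members and all gene lists were chosen with earlier results of these data known. Of the list genes, symbols missing from the files or shared by 2 identifiers have no value.

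No doublet caller was used, and mixed droplets were instead left out in alternatives. The libraries held 12858754 UMIs in 1551 barcodes and 12448628 UMIs in 1867 barcodes, and 3 barcode sequences occurred in both (1 among macrophages). UMIs were summed over members and over remaining macrophages per library. The 4 profiles were fitted with edgeR 4.0.16 (R 4.3.3; TMM, filterByExpr, quasi-likelihood test, Benjamini-Hochberg adjustment), with library as a block since both groups come from the same pool. Hmox1, the C1q genes and mitochondrial genes stayed in totals but were not tested. Log2 fold changes are members over remaining macrophages, and SE was taken from the fold change and its F statistic. DESeq2 1.42.0 was an alternative.

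Genes were named from a fixed set of 30 and by 2 further rules: the 15 called genes with the largest change each way, moving alike in both libraries with a mean of at least 20 CPM in the higher group, and up to 4 genes per list with the smallest p. Values of other listed genes are given where a count of 5 or fewer or a contrast needs them, chosen after their values were seen. Intervals (95%, exact) and zero limits (3 counts) cover counting error only. Results of some genes are not reported here.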

Additional observations from a re-analysis of the deposited data

Results flagged for a closer look

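Hemoglobin genes moved in opposite directions in the 2 libraries, and the difference between libraries was not tested. Hbb-bs had 0 UMIs in Hmox1-high macrophages and 138 UMIs in remaining macrophages at 1 week, while at 12 weeks the ratio of members to remaining macrophages was 411 (95% exact counting interval 283 to 622). Hba-a1 had a 12-week ratio of 95.9 (67.8 to 140) with 0 UMIs in 1-week members, and Hba-a2 a ratio of 89.98 (60.6 to 138). A single 12-week member held 1480 of the 1579 erythroid UMIs. All 3 genes passed the edgeR test, and none passed it with the robust fit.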

How the results depend on the processing

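With members at the 95th percentile 161 genes were higher and 114 lower, with cells thinned to 2000 UMIs 198 and 100, and with members chosen and measured on separate parts of the UMIs 239 and 77. DESeq2 gave 252 and 35. Without heat shock-high macrophages there were 120 and 39, and 132 and 39 with the robust fit, chosen after seeing the data. With no replicate block edgeR called 0 and 0 (453 and 466 at an unadjusted p under 0.05), where the libraries' own difference stays in the spread; the labels pair nothing else. The other alternatives stayed within 1.5 times. The NRF2 median was 0.69 without the low-count filter and 1.33 against macrophages under the median Hmox1 share. The heat shock median was 1.45 in the same comparison and 0.68 without heat shock-high macrophages with either fit, where the same genes chose the cells left out. The heme and iron median was 0.22 without the filter, 0.14 at the 95th percentile, 0.60 against macrophages under the median, 0.22 by the mean of per-cell CPM, and 0.19 to 0.35 with 1 library left out. Leaving out 1 library, which leaves no test, gave NRF2 medians of 0.73 to 0.92 and heat shock medians of 0.75 to 1.19. Of 141 named genes, Paip2b (-0.084) and Areg (-0.059) reversed at the 95th percentile, Scg2 (0.19) and Chga (0.62) without hormone-rich cells, Chga (0.035) without the 5% of macrophages with most UMIs, and with 1 library left out Ifit3 (-2.92 to 0.025), Hbb-bs (-9.22 to 8.82), Hba-a1 (-9.38 to 6.72) and Hba-a2 (-9.17 to 6.63), each reversed without the 12-week library. The cause was not tested. The median of all genes was -0.40 without the filter, -0.12 at the 95th percentile and -0.21 by the per-cell mean, against -0.05. Depth limits low genes such as Nqo1, with 3 UMIs in the members of each library.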

Other observations

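Protein turnover genes were partly higher in Hmox1-high macrophages. Of 21 proteasome subunits 4 were higher and 0 lower (1 and 0 without heat shock-high macrophages), with Psma5 at 150 and 153 CPM in Hmox1-high macrophages at 1 and 12 weeks against 94.5 and 105 CPM in remaining macrophages (log2 fold change 0.72 ± 0.13, edgeR adjusted p = 4.89e-06). Of 15 autophagy and ubiquitin cargo genes 5 were higher and 0 lower (3 and 0 without heat shock-high macrophages), among them the autophagosome protein Map1lc3b (0.51 ± 0.11, edgeR adjusted p = 1.97e-04) beside Sqstm1 and Ubb. Of 17 anti-inflammatory and growth factor genes 3 were higher and 4 lower (0 and 1 without heat shock-high macrophages). Areg, an epidermal growth factor family member, was higher (0.93 ± 0.23, edgeR adjusted p = 0.00128), and Tgfbi, an extracellular matrix protein, had 317 and 229 CPM in Hmox1-high macrophages against 563 and 402 CPM in remaining macrophages (-0.70 ± 0.11, edgeR adjusted p = 5.37e-08). Of 5 dendritic cell markers tested 0 were higher and 1, Ccr7, was lower, and 0 of 5 T cell, 0 of 1 neutrophil, 0 of 1 acinar and 0 of 2 endothelial and stromal markers tested passed the test in either direction.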
